A study of Mus musculus with 12 samples.

Results

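The induced pluripotent stem (iPS) cell line LiPS-57 was compared with the line LiPS-47 across the genes of an Affymetrix expression array. The labels give LiPS-57 tetraploid embryo complementation competence and give LiPS-47 none. In that assay stem cells are combined with an embryo whose own cells are tetraploid and contribute mainly to the extraembryonic tissues, so a live pup comes almost wholly from the stem cells. The comparison takes the 3 arrays of each line, 6 of the 12 in the series, chosen by line name. Both lines share their origin: mouse embryonic fibroblasts of strain C57BL/6J reprogrammed with 3 factors, which the labels do not name, and grown in embryonic stem cell medium. The other 6 arrays belong to LiPS-45, labelled with competence, and LiPS-50, labelled without it, 3 each. They entered the estimate of the spread, and their values stand beside those of the pair. Each line may be 1 clone and the labels do not say, so the p-values measure the spread between cultures of these lines, not between competent and other lines in general.

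The array reads total RNA as 1 intensity per probe set, a group of short probes for a gene or transcript. Values are given as log2(intensity + 1), a scale that understates changes of dim genes, and folds are back-transformed from it. Unless other lines are named, a difference is LiPS-57 minus LiPS-47, a spread is a standard deviation (SD) over 3 cultures, and a gene is called when its adjusted p from limma lies under 0.05. Median intensities per array lay between 50.1 and 53.1, and log2 values of 2 arrays correlated at 0.9957 to 0.9974 within a line and 0.9954 to 0.9970 between lines. The number of arrays limits the precision. Defining markers of pluripotent cells were read far above the array median in both lines. Pou5f1 (Oct4) was measured at 11.72, 11.73 and 11.73 in LiPS-57 and 11.66, 11.68 and 11.73 in LiPS-47. Sox2 lay between 10.51 and 10.62 and Nanog between 10.39 and 10.59 over the 6 arrays. The arrays of both lines overlapped for all 3 genes.

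Of the 30 genes called, 13 came from 1 imprinted region, the Dlk1-Dio3 domain of mouse chromosome 12. Imprinted genes are read from only the maternal or the paternal copy. In this domain the maternal copy gives the long noncoding RNAs Meg3 (also called Gtl2) and Rian, small nucleolar RNAs within Rian, and a large group of microRNA genes, while the paternal copy gives the protein genes Dlk1, Rtl1 and Dio3. Whether the maternal RNAs are on or silent is known to differ between mouse iPS lines. A microRNA acts through its seed, the bases near its 5' end that pair with target messages.

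The microRNA genes called lower in LiPS-57 are shown here by their mature products, because their seeds decide which messages they can pair with. Mature sequences of the 9 called genes were all found in RefSeq (GRCm38.p6), 16 in number with 16 distinct seeds, on the plus strand of chromosome 12. The 11 below come from Mir679, Mir329 and Mir539, which kept their calls under every alternative, from Mir380 with the largest difference, and from Mir134 and Mir411. Each is written 5' to 3' with bases 2 to 8, the seed, in capitals.
miR-679-5p: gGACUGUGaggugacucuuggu
miR-679-3p: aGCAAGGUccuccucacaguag
miR-329-5p: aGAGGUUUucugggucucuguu
miR-329-3p: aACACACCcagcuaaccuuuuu
miR-539-5p: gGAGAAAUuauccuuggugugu
miR-380-5p: aUGGUUGAccauagaacaugcg
miR-380-3p: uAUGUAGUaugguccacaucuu
miR-134-5p: uGUGACUGguugaccagagggg
miR-134-3p: cUGUGGGCcaccuagucacc
miR-411-5p: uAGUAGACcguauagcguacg
miR-411-3p: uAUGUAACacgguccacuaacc
The seed of miR-411-3p, AUGUAAC, is also that of miR-379-3p from the neighbouring gene Mir379. A probe set at a microRNA gene can read any RNA that covers it, so the values below are of the gene, not of the mature strand.

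The other measured maternal RNAs lie downstream of the Meg3 start, so a Meg3 promoter is shown as well. It is the first of 2 listed in RefSeq, and the other is not shown. The window holds 250 bases before to 50 after the start, chr12:109540746-109541045 (GRCm38.p6, plus strand). Capitals mark matches to 3 promoter motifs searched on both strands. These are TATAAA, the core promoter element, which matches on both strands in overlap here, the cyclic AMP response element TGACGTCA, and the upstream element CCAAT.
Meg3: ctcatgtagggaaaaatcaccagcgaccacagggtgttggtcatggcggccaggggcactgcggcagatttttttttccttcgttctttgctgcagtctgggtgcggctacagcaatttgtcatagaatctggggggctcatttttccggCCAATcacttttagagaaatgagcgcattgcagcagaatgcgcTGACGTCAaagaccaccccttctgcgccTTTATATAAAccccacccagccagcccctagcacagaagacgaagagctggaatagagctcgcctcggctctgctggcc
Among 32851 promoters of this length, 13.6% hold TATAAA, 1.79% TGACGTCA and 37.4% CCAAT on either strand. The GC box GGGCGG and the AP-1 motif TGANTCA were also searched. They occur in 35.7% and 7.81% of the promoters, and not in this window.

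Few genes differed between the lines. Of 28939 probe sets tested, 46 (0.159%) were called, 4 higher (0.0138%) and 42 lower (0.145%) in LiPS-57. Only 44 of the 46 had distinct values. Probe sets 10398372 and 10398376 read the same on every array, as did 10493856 and 10493858. With 1 probe set per gene, 30 of 19938 genes were called (0.15%), 3 higher (0.015%) and 27 lower (0.135%). Of the called probe sets, 11 differed at least 2-fold and 0 of these were higher, while the smallest called difference was 1.27-fold. At an unadjusted p under 0.05 there were 1995 probe sets (6.89%), 823 higher (2.84%) and 1172 lower (4.05%), and arrays of the lines did not overlap for 1637 higher (5.66%) and 1804 lower probe sets (6.23%). For genes the unadjusted count was 1365 (6.85%), 603 higher (3.02%) and 762 lower (3.82%). The median difference over all genes was -0.0036, with the 5th and 95th percentile at -0.19 and 0.17. The count depended on single arrays and on the fit. It was 23 when LiPS-57 lacked replicate 1 or lacked replicate 3, 24 and 27 without LiPS-47 replicates 1 and 2, 29 without LiPS-45 replicate 2, and at most 61, without LiPS-47 replicate 3. It was 19 with the pair fitted alone, 28 with a block of control probe sets included and 80 with an intensity trend and robust prior. Of the 46, 17 were called under all 21 alternatives.

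**Figure D1:**
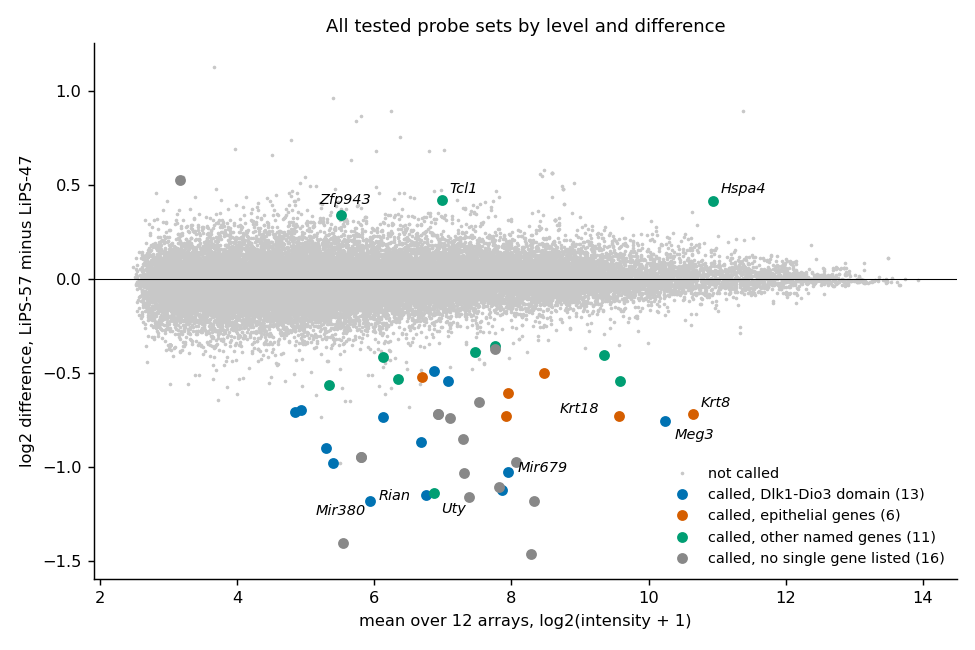
Each point is 1 of 28939 tested probe sets, placed by its mean over 12 arrays on the x axis, log2(intensity + 1), and by its log2 difference LiPS-57 minus LiPS-47 on the y axis. Coloured points passed the limma test at an adjusted p under 0.05: 13 single genes of the Dlk1-Dio3 domain, 6 epithelial genes, 11 other named genes and 16 probe sets with no single gene listed. All but 4 of them lie below 0.

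Of 44 measured maternal RNAs of the domain, 13 were called lower in LiPS-57 and 0 higher, against the 0.135% of all genes called lower. They are Meg3, Rian, 2 snoRNA genes and 9 microRNA genes. The median difference of the 44 was -0.45, against -0.0036 over all genes, 42 were negative, 31 had an unadjusted p under 0.05 as lower, and 32 had arrays that did not overlap between the lines, where 6.51% of all genes were lower without overlap. In the run of probe set numbers from Meg3 to the last one of the domain, 55 of 57 tested probe sets were lower, and 21 were called, 6 of them with no gene listed. These 6 include 10398372 and 10398376, which have identical values. With the pair fitted alone the 13 became 8. They became 7 without the first LiPS-47 culture, and also 7 without the third of LiPS-57.

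Meg3, the noncoding RNA at the start of the maternal group, was measured at 9.55, 9.66 and 9.58 in LiPS-57 and at 10.47, 10.26 and 10.32 in LiPS-47. All LiPS-57 arrays were lower, and the arrays of each line lay close together. The difference was -0.76 (standard error, SE, 0.0786, n = 3 each), 1.69-fold, with an adjusted p of 0.0019. Rian, the host RNA of the snoRNA genes, stood at 6.22, 5.86 and 5.72 against 7.12, 6.98 and 7.15, so the highest LiPS-57 array was still below the lowest of LiPS-47. Its difference was -1.15 (SE 0.126), 2.22-fold (adjusted p = 0.0029).

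The 2 measured snoRNA genes, which lie in Rian and encode box C/D type RNAs of unknown target, were both called. DQ267102 was measured at 7.39, 6.90 and 6.98 in LiPS-57 and at 8.14, 8.26 and 8.25 in LiPS-47. The difference was 2.18-fold (log2 -1.12, SE 0.129, adjusted p = 0.0035). DQ267101 stood at 4.82, 4.80 and 4.54 against 5.84, 5.60 and 5.44, a difference of 1.87-fold (log2 -0.90, SE 0.115, adjusted p = 0.0074). It lost its call with the pair fitted alone (adjusted p = 0.0804). The probe set with the largest difference of the array, 10398362, has its number in this stretch and lists more than 1 gene. It read 7.68, 7.09 and 7.37 in LiPS-57 and 8.91, 8.82 and 8.81 in LiPS-47, 2.77-fold lower (adjusted p = 6.13e-04). Probe set 10398354, for which no gene is listed, read 7.54, 7.34 and 7.48 against 8.61, 8.57 and 8.72, 2.27-fold lower (adjusted p = 6.13e-04).

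**Figure D2:**
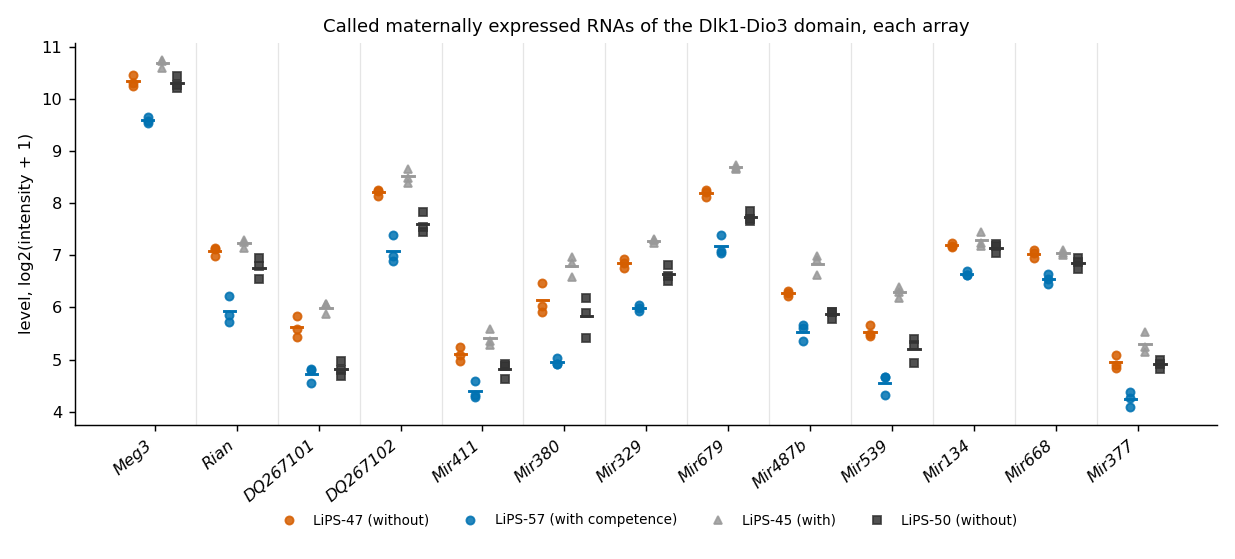
Level of the 13 called maternal RNAs of the Dlk1-Dio3 domain, in log2(intensity + 1) on the y axis, with a point per array, a bar at each line mean, and genes in chromosomal order on the x axis. For each of these genes the 3 LiPS-57 arrays lie below the 3 LiPS-47 arrays, and LiPS-45 has the highest mean.

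Among microRNA genes, 9 of 40 were called lower. Mir679 was measured at 7.38, 7.05 and 7.08 in LiPS-57 and at 8.26, 8.12 and 8.21 in LiPS-47. This 2.04-fold difference (log2 -1.03, SE 0.0882) had the smallest adjusted p of any single gene, 6.13e-04. Mir329 stood at 5.98, 6.04 and 5.93 against 6.94, 6.75 and 6.86, 1.82-fold lower (log2 -0.87, SE 0.0803, adjusted p = 0.0010). Mir539 read 4.32, 4.67 and 4.67 against 5.50, 5.45 and 5.66, 1.97-fold lower (log2 -0.98, SE 0.127, adjusted p = 0.0079). For these 3 genes the lines were apart by more than any spread within a line, and the calls held in all 21 alternatives, as did those of Meg3, Rian and DQ267102.

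The other 6 called microRNA genes were lower by 1.41-fold to 2.27-fold. Mir380, at 4.92, 5.03 and 4.92 against 6.47, 5.92 and 6.02, differed most (log2 -1.18, SE 0.181, adjusted p = 0.0260). LiPS-47 replicate 1 was the highest array of that gene. Mir487b differed by -0.73 (adjusted p = 0.0129), Mir134 by -0.54 (0.0156), Mir668 by -0.49 (0.0236), Mir377 by -0.71 (0.0260) and Mir411 by -0.70 (0.0353). Mir134 is known from neurons, where it limits the growth of dendritic spines. With the pair fitted alone Mir487b (0.0575), Mir668 (0.186), Mir377 (0.112) and Mir411 (0.165) were not called, and with the control block Mir380 (0.0816), Mir668 (0.0569), Mir377 (0.0764) and Mir411 (0.103) were not. Single arrays decided these 6 calls as well. Without 1 array, Mir487b was lost for LiPS-47 replicates 1 and 2 and LiPS-57 replicate 3 (adjusted p 0.0585 to 0.0888), and Mir134 for each array of the pair (0.0513 to 0.0898). Mir668 was lost for LiPS-47 replicates 1 and 3 and LiPS-57 replicates 1 and 3 (0.0588 to 0.134), and Mir380 for LiPS-45 replicate 2, LiPS-47 replicate 1 and each LiPS-57 array (0.0525 to 0.154). Mir377 was lost for LiPS-45 replicate 2, each LiPS-47 array and LiPS-57 replicates 1 and 3 (0.0510 to 0.154), and Mir411 for every array but LiPS-45 replicate 3, LiPS-50 replicate 2 and LiPS-57 replicate 2 (0.0541 to 0.193).

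Along the domain the differences were not of 1 size. Meg3 differed by -0.76, the 8 microRNA genes between it and Rian by a median of -0.21 with 0 called, and Rian with its snoRNA genes by a median of -1.12 with all 3 called. Of those 8, Mir127 had the lowest difference, -0.61 (adjusted p = 0.169), with arrays that did not overlap. It was measured at 5.82, 5.62 and 5.61 in LiPS-57 and at 6.42, 6.39 and 6.08 in LiPS-47. Mir431 was at 0.025, with overlapping arrays. Between Rian and Mir379, Mir341 and Mir370 differed by -0.30 and -0.44 and were not called. From Mir379 on, 30 microRNA genes had a median of -0.52, with 9 called and 24 not overlapping, from Mir380 at -1.18 to Mir666 at 0.045. No test of the differences between these stretches was run. Calls also went with signal: 11 of the 27 members above the 40th percentile of probe set means (5.21) were called, and 2 of the 17 below it.

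**Figure D3:**
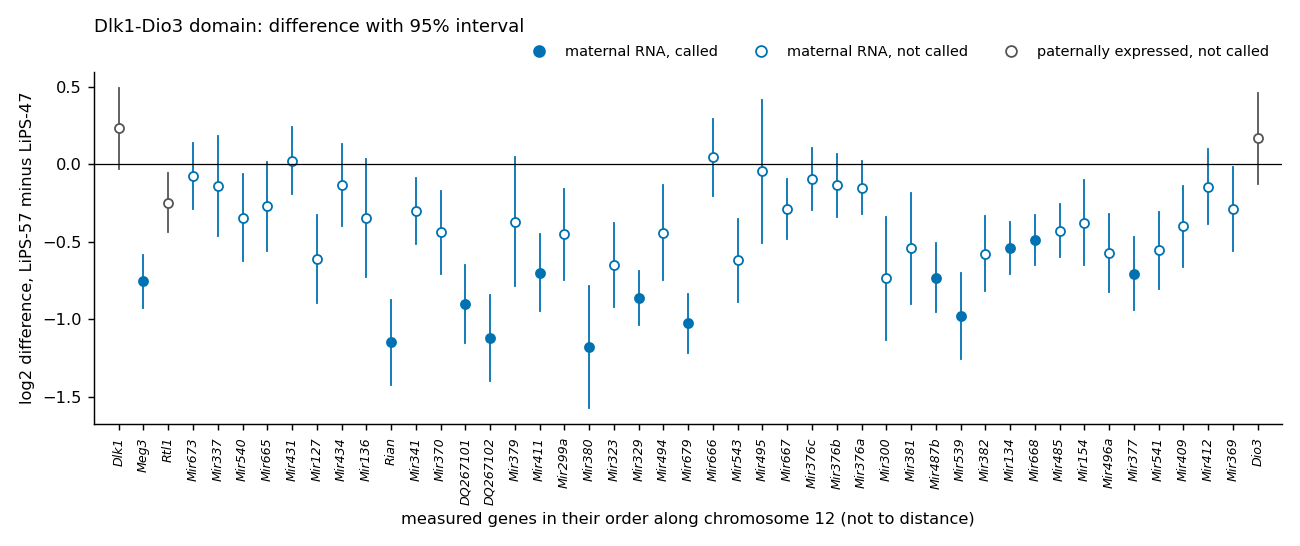
Log2 difference LiPS-57 minus LiPS-47 (y axis) with its 95% confidence interval from limma for 44 maternal RNAs and 3 paternally expressed genes, in their order along chromosome 12 on the x axis, which is not to distance. Filled points were called. Mir380, Rian and DQ267102 lie lowest, and the paternally expressed genes lie between -0.25 and 0.23.

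The paternally expressed genes were not called. Dlk1, a secreted and membrane-bound inhibitor of differentiation, was measured at 8.70, 8.85 and 8.94 in LiPS-57 and at 8.63, 8.79 and 8.36 in LiPS-47, with overlapping arrays and a difference of 0.23 (SE 0.120, adjusted p = 0.762). Dio3, which inactivates thyroid hormone, differed by 0.17 (SE 0.136, adjusted p = 0.886). Rtl1, a retrotransposon-derived gene of the placenta, stood at 5.67, 5.80 and 5.63 against 5.95, 6.02 and 5.87. Its arrays did not overlap, and it differed by -0.25 (SE 0.0870, unadjusted p = 0.0150, adjusted p = 0.563). Rtl1 is overlapped by maternal RNA of the other strand, and the way these values treat strand is not given in the sources used here. Outside the domain, chromosome 12 had 605 measured genes with 1 called higher, 0 lower and a median of 0.0017. In bulk RNA, fewer cells that express a gene and less RNA per cell cannot be told apart, here and below.

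The values of LiPS-45 and LiPS-50 place the pair. Comparisons of a line with LiPS-57 or with LiPS-47 share those arrays and are given side by side only. The test called 77 probe sets (0.266%) for LiPS-57 minus LiPS-45, 4527 (15.6%) for LiPS-57 minus LiPS-50, 18 (0.0622%) for LiPS-45 minus LiPS-47 and 4568 (15.8%) for LiPS-50 minus LiPS-47. Meg3 averaged 10.70 ± 0.0798 in LiPS-45 and 10.32 ± 0.118 in LiPS-50 (SD, n = 3 each), and LiPS-57 was lower than either, by 1.10 (adjusted p = 3.85e-05) and 0.73 (adjusted p = 9e-05). LiPS-50 minus LiPS-47 was -0.03 (adjusted p = 0.859). Rian averaged 7.23 ± 0.0783 and 6.76 ± 0.204 in LiPS-45 and LiPS-50. DQ267101 had the same order of line means, but its LiPS-50 level lay near that of LiPS-57. It averaged 4.82 ± 0.143 in LiPS-50 against 4.72 ± 0.157 in LiPS-57, which was not called (adjusted p = 0.682), and 50 minus 47 was -0.81 (adjusted p = 5.17e-04). Mir134 averaged 7.15 ± 0.0859 in LiPS-50 and 7.19 ± 0.0448 in LiPS-47 (adjusted p = 0.794), both above the 6.65 ± 0.0426 of LiPS-57.

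Some keratin and other epithelial genes were also lower in LiPS-57. Keratins are the intermediate filament proteins of epithelia. Krt8 and Krt18 form a pair in simple epithelia and in the trophectoderm, the outer layer of the blastocyst. Of 10 keratin genes, 3 were called lower and 0 higher, with a median of -0.20. Of 21 trophectoderm genes, 5 were called lower and 0 higher, with a median of -0.087 and 16 negative. Of 29 genes of epithelial junctions 1 was called lower and 0 higher, with a median of -0.070. Over all genes 0.135% were called lower and 0.015% higher, with a median of -0.0036. The called trophectoderm genes were Krt8, Krt18, Krt19, Dsp and Plet1, so the lists share the keratins and Dsp, and Itga3, described with them, is in none of the lists. Probe sets that list several genes are not in the lists either. Of these, 10493850 lists several Sprr2 genes and was 1.97-fold lower (log2 -0.98, adjusted p = 0.0010), with its call kept under all 21 alternatives. The identical 10493856 and 10493858, also of Sprr2 genes, differed by -0.72 (adjusted p = 0.0079).

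Krt18 was measured at 9.24, 9.47 and 9.17 in LiPS-57 and at 10.10, 9.97 and 9.99 in LiPS-47. It was 1.66-fold lower in LiPS-57 (log2 -0.73, SE 0.0814, adjusted p = 0.0031). Krt8 stood at 10.51, 10.58 and 10.12 against 11.34, 11.03 and 11 in LiPS-47, with LiPS-57 replicate 3 lowest, a 1.65-fold difference (log2 -0.72, SE 0.118, adjusted p = 0.0355). Krt19, a keratin that needs no fixed partner in many ducts, read 7.49, 7.88 and 7.43 against 8.44, 8.36 and 8.18, 1.66-fold lower (log2 -0.73, SE 0.120, adjusted p = 0.0365). No array of LiPS-57 reached LiPS-47 in any of the 3. Of the other keratins, Krt7 had arrays without overlap and a difference of -0.22 (adjusted p = 0.562), and Krt5, Krt14 and Krt17, of stratified epithelium, differed by -0.17, -0.18 and 0.03 with overlapping arrays.

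Because Krt8 and Krt18 are both on chromosome 15 and were both called, their promoters are shown, 250 bases before to 50 after the start, from RefSeq (GRCm38.p6): Krt8 at chr15:102004293-102004592 on the minus strand and Krt18 at chr15:102027966-102028265 on the plus strand. Capitals mark TATAAA, found on both strands, overlapping, in Krt8. There the matches begin 1 and 3 bases before the annotated start and run across it, at bases 250 to 255 and 248 to 253 of the window, while those of Meg3 lie upstream of its start, at bases 226 to 231 and 222 to 227.
Krt8: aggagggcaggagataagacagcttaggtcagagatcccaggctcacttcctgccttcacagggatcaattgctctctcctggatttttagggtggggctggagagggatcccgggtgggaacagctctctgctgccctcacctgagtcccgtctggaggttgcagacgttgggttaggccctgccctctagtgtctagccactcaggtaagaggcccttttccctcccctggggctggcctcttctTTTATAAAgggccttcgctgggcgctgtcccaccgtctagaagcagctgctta
Krt18: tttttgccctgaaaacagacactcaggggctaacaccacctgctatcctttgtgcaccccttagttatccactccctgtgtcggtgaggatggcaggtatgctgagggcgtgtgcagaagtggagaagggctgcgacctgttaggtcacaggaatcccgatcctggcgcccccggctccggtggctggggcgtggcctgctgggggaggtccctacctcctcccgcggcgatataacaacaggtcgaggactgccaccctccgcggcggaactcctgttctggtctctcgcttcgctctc
None of the 5 motifs searched above has its letters in the Krt18 window, and only TATAAA has them in the Krt8 window.

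Dsp, the desmosome protein that anchors keratin filaments to the membrane, was measured at 7.68, 7.81 and 7.57 in LiPS-57 and at 8.43, 8.17 and 8.27 in LiPS-47, 1.52-fold lower (log2 -0.60, SE 0.0812, adjusted p = 0.0099). Plet1, a surface protein of trophoblast progenitors, stood at 6.67, 6.59 and 6.45 against 7.14, 7.09 and 7.04 (log2 -0.52, SE 0.0839, adjusted p = 0.0347). Itga3, the integrin subunit that binds epithelial cells to laminin, read 8.25, 8.43 and 8.19 against 8.86, 8.80 and 8.72 (log2 -0.50, SE 0.0834, adjusted p = 0.0374). The lines did not overlap for these genes. Among junction genes that were not called, Dsc2, a desmosomal cadherin, differed by -0.51 (adjusted p = 0.180) and Cgn (cingulin) of tight junctions by -0.32 (adjusted p = 0.145). Cdh1 (E-cadherin) at 0.03 and Epcam at -0.07 had overlapping arrays. The highest of the 29 junction genes was Cdh3, at 0.24. Arrays did not overlap for 3 of the 29 as higher (10.3%, against 6.15% of all genes). As lower they did not overlap for 6 (20.7%, against 6.51% of all genes).

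**Figure D4:**
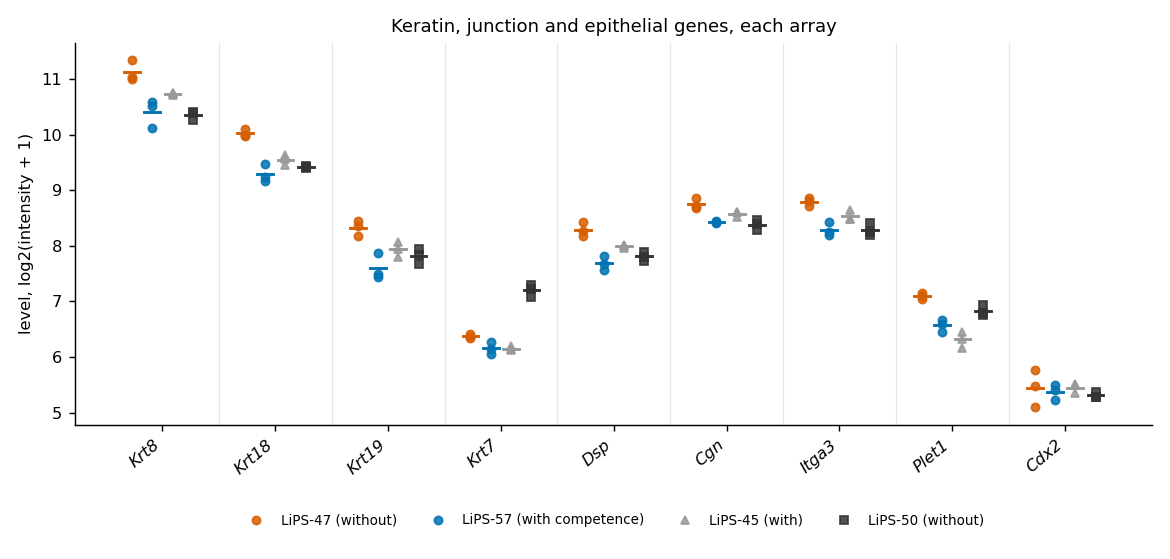
Level of keratin, junction and other epithelial genes in log2(intensity + 1) on the y axis, with a point per array, a bar at each line mean, and genes on the x axis. LiPS-57 and LiPS-47 are apart for Krt8, Krt18, Krt19, Dsp, Itga3 and Plet1, which were called, and for Krt7 and Cgn, which were not, and they overlap for Cdx2.

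None of the transcription factors of trophectoderm and trophoblast that were measured passed the test. Cdx2, which specifies trophectoderm, was measured at 5.40, 5.22 and 5.49 in LiPS-57 and 5.77, 5.48 and 5.09 in LiPS-47, and Tfap2a, Elf5, Gata2, Gata3, Tfap2c, Tead4, Hand1 and Eomes were not called, at -0.08 to 0.24. The highest was Tfap2a, at 0.24 (adjusted p = 0.794), with overlapping arrays. Of these factors only Tead4, at -0.08, had arrays without overlap. The summed intensity of the 21 trophectoderm genes lay between 5300 and 6337 on the LiPS-57 arrays and between 7495 and 8448 on those of LiPS-47. Summed intensities of the 29 junction genes were 13560 to 14064 and 14352 to 14563. Fibroblast and feeder cell genes were higher in LiPS-57 for all 36 measured, with 0 called, a median of 0.13 and 3 without overlap, which is 8.33% of them where 6.15% of all genes were higher without overlap. Their summed intensity was 26955 to 29159 in LiPS-57 and 22657 to 28302 in LiPS-47, so the lines overlapped. None of these markers was at 0, and their part in the keratin or the Dlk1-Dio3 differences was not tested.

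LiPS-47 had the highest mean of the 4 lines for Krt8, Krt18, Krt19, Dsp, Itga3 and Plet1. Krt18 averaged 9.55 ± 0.0962 in LiPS-45 and 9.42 ± 0.0132 in LiPS-50, and LiPS-57 minus these was -0.26 (adjusted p = 0.421) and -0.13 (adjusted p = 0.371). Dsp averaged 7.99 ± 0.0228 and 7.81 ± 0.0750. Plet1 was lowest in LiPS-45, at 6.31 ± 0.139 (SD, n = 3 each).

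Calls of the named genes of this group other than that of Krt18 depended on single arrays. Krt18 was lost with the pair fitted alone (adjusted p = 0.0575), and there the count of keratins was 0, while it was 1 with the control block included. With the pair fitted alone Dsp (0.186), Itga3 (0.210), Plet1 (0.143), Krt8 (0.336) and Krt19 (0.238) were lost too. Krt8 (0.103), Krt19 (0.105), Itga3 (0.0956) and Plet1 (0.0816) were also lost with the control block. Dsp was lost without LiPS-57 replicate 1 or 3 (0.0620 and 0.0585). Krt8 and Krt19 stayed called only where the array left out was the third of LiPS-47 or the second of LiPS-57. Without any other array their adjusted p-values were 0.0620 to 0.152 and 0.0531 to 0.210, and 1 keratin was then called. Itga3 was lost without every array but LiPS-50 replicate 3 and LiPS-57 replicate 2 (0.0530 to 0.204), and Plet1 without every array but LiPS-45 replicates 1 and 3 and LiPS-50 replicate 1 (0.0563 to 0.179).

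Of 8 Y-linked genes, 1 was called lower, where 0.135% of all genes were. All 8 differences were negative, with a median of -0.24. In each of the 2 lines 5 of the 8 were dim, at levels under 5.21, the cut used above for the Dlk1-Dio3 RNAs. The shared sign therefore rests mostly on dim genes. Uty, a Y-linked member of the histone demethylase family, was measured at 6.63, 6.66 and 6.59 in LiPS-57 and at 7.94, 7.66 and 7.70 in LiPS-47. The 2.20-fold difference (log2 -1.14, SE 0.135, adjusted p = 0.0037) was many times the spread between cultures and held in all 21 alternatives. Eif2s3y, a translation initiation factor needed in spermatogonia, stood at 5.65, 6.04 and 5.63 against 6.56, 6.40 and 6.41. Its arrays did not overlap either, but it was not called (log2 -0.68, adjusted p = 0.0823). Kdm5d, a histone demethylase, differed by -0.24 and Sry, the testis-determining gene, by -0.25, with adjusted p-values of 0.728 and 0.785.

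Uty and Eif2s3y did not share an order over the lines. Uty averaged 7.86 ± 0.167 in LiPS-45 and 5.25 ± 0.302 in LiPS-50, so that LiPS-57 lay between LiPS-47 and LiPS-50. Eif2s3y averaged 7.46 ± 0.202 in LiPS-45 and 6.34 ± 0.149 in LiPS-50, and LiPS-57 was lowest. Xist, the RNA that silences an X chromosome, was at 6.50, 6.58 and 6.30 in LiPS-57 and 6.42, 6.34 and 5.91 in LiPS-47, with overlap (adjusted p = 0.806), against 8.31 ± 0.216 in LiPS-50. The 739 X-linked genes had a median difference of -0.0081. Of them 1 was called, Usp26, a ubiquitin protease gene with testis expression. It read 5.81, 5.79 and 5.80 against 6.31, 6.16 and 6.18, 1.33-fold lower (SE 0.0674, adjusted p = 0.0353), and lost its call without any 1 array other than LiPS-50 replicates 1 and 2 (adjusted p up to 0.179), with the pair fitted alone (0.205) and with the control block (0.0764).

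Only 3 named genes were called higher in LiPS-57. Hspa4, an Hsp70 cochaperone of the Hsp110 kind, was measured at 11.06, 11.13 and 11.04 in LiPS-57 and at 10.73, 10.59 and 10.66 in LiPS-47. The difference was 1.34-fold (log2 0.42, SE 0.0579, adjusted p = 0.0128). Tcl1, which binds and activates Akt kinases and supports self-renewal of mouse stem cells, stood at 7.15, 6.93 and 7.01 against 6.64, 6.61 and 6.58, 1.34-fold higher (log2 0.42, SE 0.0645, adjusted p = 0.0260). Zfp943, a zinc finger gene, read 5.64, 5.80 and 5.68 against 5.36, 5.41 and 5.32, 1.27-fold higher (log2 0.34, SE 0.0585, adjusted p = 0.0490). No arrays overlapped for these genes. The fourth called probe set, 10362160, lists no gene and was dim, at 3.54, 3.51 and 3.28 against 2.80, 3.06 and 2.89.

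In LiPS-45, Hspa4 averaged 11.13 ± 0.0527 and Zfp943 5.71 ± 0.0305, which LiPS-57 did not differ from by the test (adjusted p = 0.900 and 1). In LiPS-50 they averaged 10.92 ± 0.0140 and 5.30 ± 0.0210. Tcl1 averaged 6.72 ± 0.0199 in LiPS-45 and 7.59 ± 0.0601 in LiPS-50, the highest of the lines (SD, n = 3 each). Hspa4 lost its call without LiPS-47 replicate 2 or any LiPS-57 array (0.0530 to 0.0712), Tcl1 without LiPS-45 replicate 2, LiPS-50 replicate 1, LiPS-57 replicates 1 and 3 or any LiPS-47 array (0.0504 to 0.122), and Zfp943 without any 1 of the 12 (0.0769 to 0.200). With the pair fitted alone all 3 were lost (0.198, 0.238 and 0.363), and with the control block Tcl1 (0.0558) and Zfp943 (0.0816). Of the other Akt pathway genes 0 of 15 were called. Tcl1b1, a relative of Tcl1, differed by 0.09 and Akt1 by 0.02.

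The remaining 6 called genes were lower in LiPS-57 and are in none of the gene lists. Cth, the enzyme that makes cysteine from cystathionine, was measured at 9.15, 9.16 and 9.06 in LiPS-57 and at 9.56, 9.53 and 9.49 in LiPS-47 (log2 -0.40, SE 0.0575, adjusted p = 0.0153). Igfbp3, a binding protein of insulin-like growth factors, stood at 9.43, 9.65 and 9.33 against 10.08, 10.01 and 9.95 (log2 -0.54, SE 0.0858, adjusted p = 0.0338). Ucma, a secreted protein of cartilage, differed by -0.56 (adjusted p = 0.0347) and Shisa6, a partner of glutamate receptors, by -0.53 (adjusted p = 0.0347). Pttg1 (securin), the inhibitor of separase until anaphase, read 7.28, 7.32 and 7.32 against 7.59, 7.79 and 7.71 (log2 -0.39, SE 0.0630, adjusted p = 0.0353). Gprc5c, an orphan receptor, differed by -0.36 (adjusted p = 0.0365). Arrays of the lines did not overlap for any of these 6 genes.

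Their order over the lines varied. Igfbp3 and Shisa6 were lowest in LiPS-50, at 9.03 ± 0.0818 and 5.75 ± 0.0605, below LiPS-57 by 0.44 and 0.45. Pttg1 averaged 7.75 ± 0.0308 in LiPS-45, near LiPS-47, and 7.11 ± 0.0561 in LiPS-50. Cth averaged 9.41 ± 0.0507 and 9.32 ± 0.0393 in these lines (SD, n = 3 each). With the pair fitted alone all 6 calls were lost, with adjusted p-values of 0.198 for Cth, 0.217 for Igfbp3, 0.238 for Ucma and 0.289 for Shisa6, Pttg1 and Gprc5c. All but that of Cth were also lost with the control block (0.0721 to 0.0816). Without 1 array Cth lost its call for LiPS-47 replicates 1 and 2 and LiPS-57 replicates 1 and 3 (0.0633 to 0.111), and Igfbp3 for these and for LiPS-45 replicate 2 and LiPS-50 replicates 1 and 2 (0.0567 to 0.167). Ucma kept its call only without LiPS-45 replicate 1, LiPS-47 replicate 3 or LiPS-57 replicate 2 (0.0541 to 0.181 otherwise), Pttg1 only without LiPS-47 replicate 1 (0.0555 to 0.182) and Gprc5c only without LiPS-47 replicate 3 (0.0585 to 0.183), while Shisa6 lost it without any 1 of the 12 (0.0587 to 0.154).

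Of 19 core pluripotency genes 0 were called, with a median of 0.049 and differences from -0.031 (Dppa4) to 0.28 (Gdf3). Gdf3, a growth factor of the TGF-beta family, was measured at 10.27, 10.27 and 10.19 in LiPS-57 and at 9.98, 9.91 and 10.01 in LiPS-47, without overlap (adjusted p = 0.183). The confidence interval of the difference was -0.08 to 0.15 for Pou5f1, -0.16 to 0.13 for Sox2 and -0.05 to 0.20 for Nanog, so each interval reaches from below to above 0. Myc and Klf4 differed by 0.02 and 0.05, with overlap. Of 19 naive pluripotency genes, which mark the earlier, ground state of these cells, 1 was called higher (Tcl1) and 0 lower, with a median of 0.056. Another 4 had an unadjusted p under 0.05, all higher: Fbxo15 at 0.29, Nr0b1 at 0.20, Klf2 at 0.18 and Esrrb at 0.16, with adjusted p-values from 0.329 to 0.594. At that threshold 3.02% of all genes were higher.

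Outside these groups Usp26 was the 1 list member called. The 14 primitive streak genes had a median of -0.096, with Fgf8, a growth factor of gastrulation, lowest at -0.34 (adjusted p = 0.476). Glycolysis and hypoxia genes had a median of -0.047 over 20 members, primed epiblast genes -0.0016 over 18 and endoderm genes -0.012 over 23. Of the 20 glycolysis and hypoxia genes 17 were negative, and 4 had an unadjusted p under 0.05, all lower. Arrays did not overlap for 8 of these 20 as lower and for 0 as higher, against 6.51% and 6.15% of all genes. Their summed intensity was 40732 to 41642 in LiPS-57 and 42720 to 42812 in LiPS-47, without overlap. The 31 germ line genes, Usp26 among them, had a median of -0.025, and Rhox9, a homeobox gene of the gonad, was highest at 0.47 (adjusted p = 0.496). Medians of the lists for neural, heart, DNA methylation, Polycomb, cell cycle, p53, stress, Nodal and BMP genes lay between -0.031 and 0.017. Those for Wnt targets, FGF and MAP kinase feedback, and interferon and antigen presentation were -0.056, -0.054 and -0.023. Of the FGF and MAP kinase genes 29.4% were higher without overlap and 5.88% lower, and of the interferon genes 23.5% and 11.8%. Over all genes these shares were 6.15% and 6.51%. Imprinted genes outside the Dlk1-Dio3 domain had a median of 0.017 over 37 members, 0 called. Among these, Zim1, a zinc finger gene beside Peg3, differed most: 5.32, 5.31 and 5.22 in LiPS-57 against 4.93, 4.84 and 4.88 in LiPS-47 (log2 0.40, adjusted p = 0.0828). Plagl1 and Zdbf2 differed by 0.38 and 0.35 (adjusted p = 0.245 and 0.450) and Nnat by 0.15 (adjusted p = 0.757).

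Chromosome 8, singled out after its values were seen, had many small differences in 1 direction. Of its 955 genes 64.3% were higher in LiPS-57, with a median difference of 0.043. On the other autosomes 45.1% to 49.3% of genes were higher, and medians lay between -0.012 and -0.0011. None of its genes was called, and 87 had an unadjusted p under 0.05 as higher (9.11%, against 3.02% of all genes) and 26 as lower. In the 550 genes above the median level, a subset chosen after seeing the data, 80.2% were higher and the median was 0.073. Of genes above that level on the other autosomes, 47.4% to 57.6% were higher, with medians from -0.0045 to 0.013. Deviations from the 12-array mean were also centred on each array's median over all genes above the median level. The median of the 550 genes was then 0.047, 0.046 and 0.054 for LiPS-57 and -0.0093, -0.016 and -0.0092 for LiPS-47. All 3 LiPS-57 arrays lay above the other 9, which ran from -0.036 to -0.0089. In 4 consecutive parts of the chromosome by gene order the median difference was 0.072, 0.072, 0.071 and 0.075. The difference is given as a description, since 3 arrays against 3 cannot give a two-sided permutation p under 0.1. In genes above the median level chromosome 8 reached this floor, and so did chromosomes 5, 9 and 18. Their centred differences were -0.0063, -0.0077 and -0.017, against 0.061 for chromosome 8. The permutation therefore does not single out chromosome 8.

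**Figure D5:**
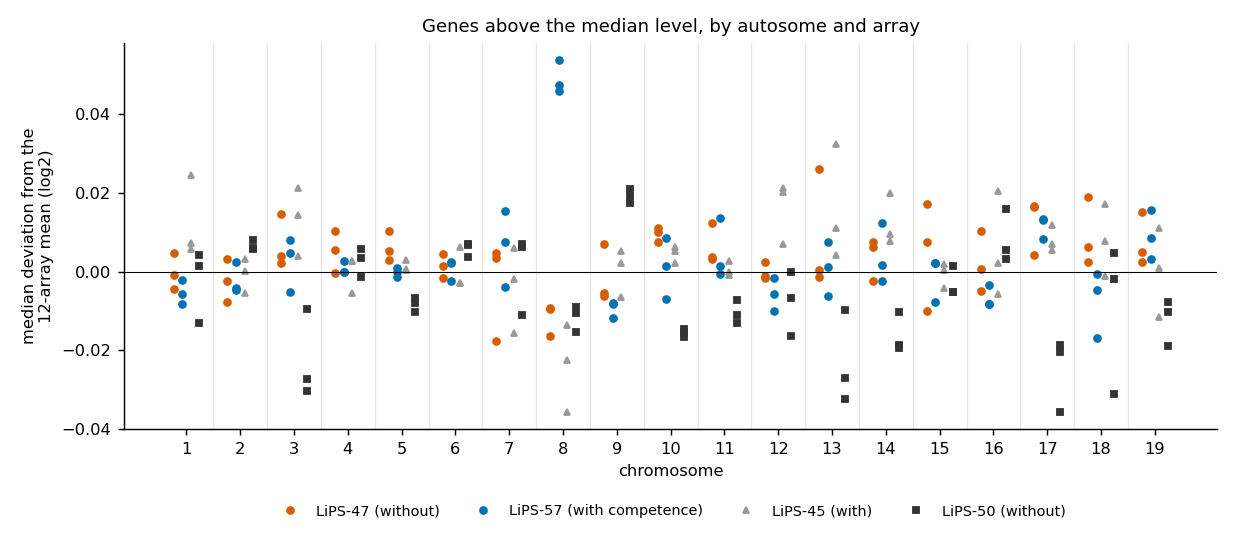
For genes above the median level, the y axis gives each array's median deviation from the mean of the 12 arrays in log2 units, by autosome on the x axis, with a point per array. Each array's median over all these genes was first subtracted. On chromosome 8 the 3 LiPS-57 arrays lie between 0.046 and 0.054 and all other arrays below 0.

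Genes closest to the threshold without being called included more of the same groups on the lower side. Mir485 differed by -0.43 (adjusted p = 0.0776), Mir382 by -0.58 (0.104) and Mir323 by -0.65 (0.104), all in the Dlk1-Dio3 domain. Wnt8a, a Wnt ligand of early embryos, differed by -0.38 (0.0776), Ltb, a lymphotoxin subunit, by -0.48 (0.0776), Dok2, an adaptor of receptor kinases, by -0.34 (0.0698), and Clu (clusterin), a secreted chaperone, by -0.39 (0.104). On the higher side stood Epha4, a receptor of ephrins, at 0.36 (0.0931), Fnbp1, a membrane-bending adaptor, at 0.42 (0.0936), and Lgals9 (galectin-9) at 0.38 (0.0938). Each of these genes had arrays that did not overlap between the lines, as 6.15% of all genes did on the higher and 6.51% on the lower side.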

How the data were processed

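The labels describe total RNA from 12 cultures of 4 iPS lines, amplified to biotin-labelled cDNA and hybridised to Affymetrix arrays. The authors deposited a linear intensity for every probe set of each array. GCOS 1.4 is named by the submitters' processing notes. How probes were summarised and arrays normalized is not given in the labels or headers. Lower quartile, median and upper quartile differed over arrays by at most 0.095 on the log2 scale, so values were kept and turned into log2(value + 1).

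Of 35556 probe sets, 6617 with numbers below the lowest one in the array annotation were left out as controls. Of the 28939 tested, 21789 list 1 gene, 1621 several and 5529 none, and only the first name a gene. The probe set with the highest mean represents a gene, which gives 19938 genes. RefSeq (GRCm38.p6) gave current symbols for 19856 by gene identifier, as well as chromosomes, gene order and sequences. The annotation names no build, so no gene coordinates are given.

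Line means over all 12 arrays were fitted with limma 3.58.1 in R 4.3.3 (lmFit, eBayes, two-sided, Benjamini-Hochberg over all tested probe sets, 8 residual and 4.06 prior degrees of freedom). No 2 arrays shared over 0.607% of identical values. On data simulated for LiPS-57 against LiPS-47, 88.1% of 1.5-fold and 100% of 2-fold and 4-fold changes were recovered, and 15 of 207 calls were false. The simulated noise was normal and independent between arrays, with spreads taken from the same fit. These shares therefore check how the fit runs and do not give its power on the real arrays. Genes named are the called ones, up to 10 next in each direction, up to 4 per list by p, the extremes of lists and a fixed set. Others (Elf5, Gata2, Gata3, Tfap2c, Tead4, Hand1, Eomes, Krt5, Krt14, Krt17, Cdh1, Epcam, Akt1, Tcl1b1, Sry, Mir127, Mir341, Mir370 and Mir431) were named after their values were seen. The comparison, members and lists were chosen with earlier results of these data known. Alternatives are given in the closing section.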

Additional observations from a re-analysis of the deposited data

How the results depend on the processing

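The count of 46 called probe sets became 25 with the replicate number as a block, 28 with the control block included, 19 with the pair fitted alone and 80 with an intensity trend and robust prior, and lay between 23 and 61 without 1 array. All calls of the replicate block and of the pair alone were among the 46, with 0 higher in LiPS-57, and 45 of the 46 were among the 80. With the replicate block 17 of the 30 named genes lost their call: Mir134, Mir380, Mir668, Mir377, Mir411, Krt8, Itga3, Usp26, Hspa4, Tcl1, Zfp943, Cth, Igfbp3, Ucma, Shisa6, Pttg1 and Gprc5c (adjusted p 0.0509 to 0.109). Of the Dlk1-Dio3 RNAs, 13 called became 8 with the replicate block and with the pair alone, and 7 to 13 without 1 array. The 3 keratins became 1 with the control block and 0 with the pair alone, and 1 to 3 without 1 array. The sign turned in 4 instances, for genes near 0: Cdx2 became 0.085 without LiPS-47 replicate 1 (-0.25 to 0.085 without 1 array), and Sox2 became 0.0015 with median centring, 0.0073 without LiPS-47 replicate 1 and 0.015 without LiPS-57 replicate 3 (-0.033 to 0.015 without 1 array). Why these values moved was not tested. The median of chromosome 8 was 0.056 with median centring and 0.044 with quantile normalization. Deviations from the line means correlated at 0.107, 0.012 and 0.114 for cultures of the same replicate number, and at -0.141 to 0.047 for others. Whether replicate numbers pair the cultures of the lines was not tested. Median centring, quantile normalization, a pseudocount of 16, a filter at the 40th percentile and array weights gave counts from 38 to 61. With median centring Mir411, Itga3, Usp26, Zfp943, Igfbp3, Pttg1 and Gprc5c lost their call. Mir377, Mir411, Usp26 and Ucma lost it with quantile normalization, and Krt19 with array weights. Dim probe sets limit what could be called: of the 3988 genes with the lowest levels, 0 were called.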
